A study of Homo sapiens with 16 samples.

Results

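Small RNA carried by extracellular vesicles (EVs) of MDA-MB-231 was compared between EVs isolated with an aqueous two-phase system in its next-generation form (next-gen ATPS) and EVs isolated with the Qiagen exoRNeasy Midi Kit. MDA-MB-231 is an established breast cancer cell line with mesenchymal-like features, and the labels describe these cultures as wild type and untreated. Next-gen ATPS partitions EVs into the dextran-rich phase of a mixture of polyethylene glycol and dextran, removes the dextran with dextranase and releases RNA with TRIzol. The exoRNeasy kit binds EVs to a membrane column and purifies RNA on a second column. Each method had 2 libraries, so the comparison rests on 4 of the 16 libraries of the series. They were chosen by cell line and isolation method, and no measured value entered the choice. Isolation and RNA extraction changed together between the methods, so their parts cannot be told apart. The other 12 libraries hold PC3 EVs from the same 2 methods, EVs of both lines pelleted by ultracentrifugation (UC), and both parent cell lines. PC3 is a prostate cancer cell line. All EVs came from culture medium conditioned by cells that had been deprived of serum, and libraries of all groups were made with the same small RNA kit. Whether the 2 libraries of a method stem from different cultures is not said in the sources used here. The p-values therefore measure only the spread between libraries within groups, and that spread may be technical. In the main test of single entries it was pooled over all 12 EV libraries, those of PC3 and UC included. With the 4 libraries alone that test called no entry in any class.

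EVs are membrane-bound particles that carry RNA out of cells. A microRNA (miRNA) is cut from a hairpin precursor into mature arms, named 5p and 3p, and pairs with target transcripts mainly through its seed near the 5′ end. Small nucleolar RNAs (snoRNAs) guide chemical modification and cleavage of ribosomal RNA (rRNA): those of the C/D box class direct methylation and those of the H/ACA box class direct pseudouridylation. Circular RNAs (circRNAs) are closed loops made by back-splicing of exons. Short reads can be listed under a circRNA entry when they match its sequence, and such a read need not cross the back-splice junction.

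The deposited values are named TPM, and each is a share of the reads of its RNA class in its library, scaled to a fixed total, with no term for length. Whole reads could be recovered from them. The miRNA class held 8648 and 4855 reads with ATPS, against 4886 and 1982 reads with exoRNeasy. The snoRNA class held 151267 and 60912 reads with ATPS and 111985 and 43868 reads with exoRNeasy. In all classes replicate 1 was the deeper library of its method. One miRNA read was worth 116, 205.97, 205 and 505 TPM in ATPS replicates 1 and 2 and exoRNeasy replicates 1 and 2, in this order. The circRNA values summed to 399175187 and 374672214 reads with ATPS and 265881619 and 207543553 reads with exoRNeasy, but these are sums over entries that can hold the same reads. Of the miRNAs taken as markers of this line, hsa-miR-221-3p, hsa-miR-222-3p, hsa-miR-100-5p and hsa-miR-21-5p were read in all 4 libraries and the miR-200 family, which marks epithelial cells, had 0 reads. A count of 0 allows a share of up to 0.0347% and 0.0618% with ATPS and up to 0.0614% and 0.151% with exoRNeasy, taking 3 reads as the limit. Of the other markers taken for this line, hsa-miR-31-5p had 0 reads in all 4 libraries and hsa-miR-125b-5p had 1 read, in ATPS replicate 1. The markers read in all 4 libraries were also read in each PC3 EV library of these methods. The miR-200 family had at most 1 read there. Presence of these markers therefore does not tell the lines apart. The blood, endothelium and liver markers had 2 entries in the data and the muscle markers had 1, so their other markers cannot be judged. Of the former only hsa-miR-486-5p was read, with 2 and 2 reads with ATPS and 1 and 2 reads with exoRNeasy. The muscle entry had 0 reads. Of 9 neuron marker entries 1 was read, at 0.0116% and 0.0412% with ATPS and 0.0% with exoRNeasy. These shares lie below the limit of 3 reads.

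Some of the mature miRNAs described below are shown first by sequence, with the seed (bases 2 to 8) in capitals. Being listed does not mean that a miRNA was called. No sequence was found for hsa-miR-425-5p, which is therefore missing. Mature sequences are those of RefSeq on GRCh38.p14. The first 2 come from neighbouring hairpins on chromosome X and share a seed, the next 2 share a seed within the miR-30 family, and the others each have a seed of their own.
hsa-miR-222-3p: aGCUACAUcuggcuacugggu
hsa-miR-221-3p: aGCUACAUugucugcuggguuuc
hsa-miR-30a-5p: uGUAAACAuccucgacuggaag
hsa-miR-30e-5p: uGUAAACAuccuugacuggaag
hsa-miR-182-5p: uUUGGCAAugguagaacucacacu
hsa-miR-27a-5p: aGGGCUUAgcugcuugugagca
hsa-miR-361-3p: uCCCCCAGgugugauucugauuu
hsa-miR-423-3p: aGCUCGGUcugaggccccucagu

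ATPS and exoRNeasy EVs shared their abundant miRNA entries, and many of these, but not all, had different shares. Among the 10 most abundant of both methods, hsa-mir-21 and hsa-mir-1291 overlapped. hsa-mir-21 had 94010.2 and 70854.8 TPM with ATPS and 99877.2 and 76690.2 TPM with exoRNeasy, a difference of -0.10 on the log2 scale. hsa-mir-1291 had 23704.9 and 19979.4 TPM with ATPS and 20262 and 36326.9 TPM with exoRNeasy, a difference of -0.32. The entry hsa-mir-7641-2 rose in ATPS EVs, whereas hsa-miR-425-5p, hsa-mir-221 and hsa-miR-27a-5p fell. The test was limma on log2(TPM + 1) values in a model of all 12 EV libraries, with Benjamini-Hochberg adjusted p-values over 433 tested entries. At an adjusted p under 0.05, 24 entries were called (5.54%), of which 14 were higher in ATPS EVs (3.23%) and 10 were lower (2.31%). Unadjusted p-values were under 0.05 for 52 entries (12%), 32 of them higher (7.39%) and 20 lower (4.62%), and the libraries of the methods did not overlap for 112 (25.9%). Of the 24 called entries, 20 had 0 reads in both libraries of one method and no more than 4 reads in any library, which is below or near the limit that a count of 0 allows. These 20 (13 higher and 7 lower) include hsa-mir-500b with 3 and 3 reads in ATPS EVs and 0 and 0 in exoRNeasy EVs, and hsa-miR-4797-3p with 0 and 0 reads in ATPS EVs and 3 and 2 in exoRNeasy EVs. The size of a fitted difference for such entries depends on the pseudocount, and none is given in this paragraph. Fitted line differences of some of them are given further below, with the same limit. The other 4 called entries were among the 41 tested entries with at least 20 reads in one of the 4 libraries, and edgeR on the recovered reads called 3 of these 4. In the plot of miRNA differences against reads these 4 stand apart from the rest of the calls.

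**Figure D1:**
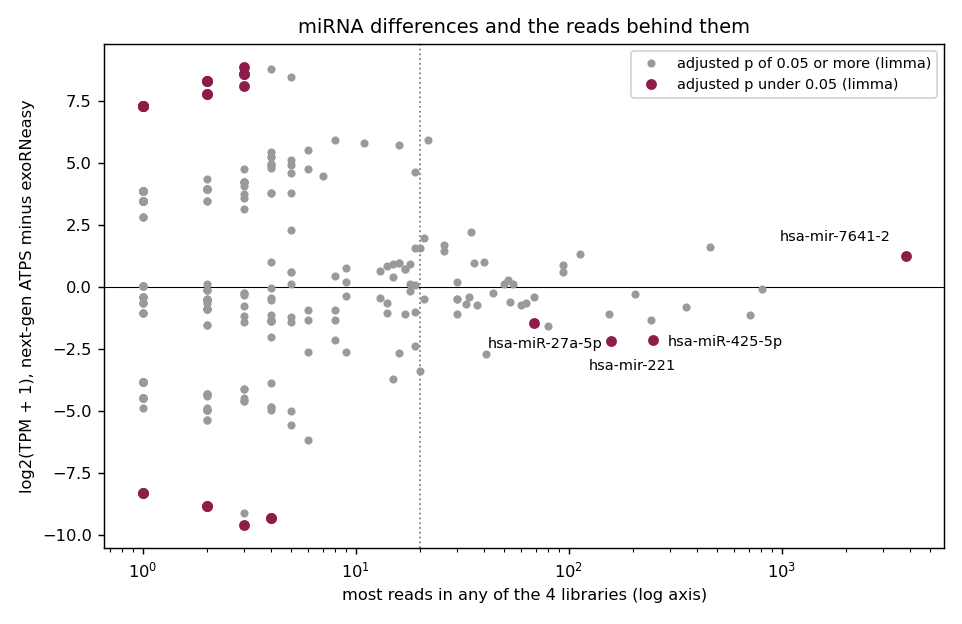
Difference in log2(TPM + 1), next-gen ATPS minus exoRNeasy, for the 322 tested miRNA entries with a read in the 4 MDA-MB-231 libraries (vertical axis), against the most reads in any of these libraries (horizontal log axis). Dark red points have a limma adjusted p under 0.05 and the dotted line marks 20 reads. Of the 24 dark red points, 20 sit at 4 reads or fewer and 4 are named to the right of the line. A further 111 tested entries had no read in these libraries and are not drawn.

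The most abundant entry by the mean of each method was hsa-mir-7641-2, although hsa-miR-30a-5p exceeded it in exoRNeasy replicate 2. It is a hairpin entry of the list of miRNA entries that resemble or overlap rRNA. It had 445305 and 376931 TPM in ATPS EVs (3851 and 1830 reads), against 189316 and 158426 TPM in exoRNeasy EVs (925 and 314 reads). Both ATPS libraries lay above both exoRNeasy libraries. As a share of miRNA reads this was 44.5% (95% Wilson interval 43.5 to 45.6) and 37.7% (36.3 to 39.1) in ATPS EVs, and 18.9% (17.9 to 20.1) and 15.8% (14.3 to 17.5) in exoRNeasy EVs. These intervals cover counting error only, since the reads carry no molecular identifiers. The rise was 1.24 on the log2 scale (SE 0.13, limma adjusted p = 0.0019), or 2.36-fold between the means, and edgeR gave 1.35 (adjusted p = 0.0016). The call was lost with quantile normalization (adjusted p = 0.49), and with only the 4 libraries in the fit no miRNA entry was called. RNA of UC EVs and of the parent cells of this line was also released with TRIzol. UC EVs had 356005 and 329529 TPM, and the parent cells had 3110.2 and 6535.9 TPM. The second of these cell libraries was shallow, with miRNA values in steps of 6535.9 TPM.

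Because each value is a share of the miRNA class, a higher share of hsa-mir-7641-2 goes with lower shares of other entries. When the values were rescaled without it, the difference moved up by 0.30 at the median over all tested entries and by 0.49 over those with at least 20 reads. Rescaling left 24 calls, 16 higher and 8 lower, of which 21 were among the original 24. The values given below are as deposited, and the rescaled value stands beside each where it changes a call.

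Among the entries that fell, hsa-miR-425-5p had the smallest p. MIR425 lies at chr3:49020148-49020234 (GRCh38, minus strand) in an intron of DALRD3. Its 5p arm had 12719.7 and 12976.3 TPM in ATPS EVs (110 and 63 reads), against 51166.6 and 65085.8 TPM in exoRNeasy EVs (250 and 129 reads). The ATPS libraries differed from each other by little and both lay below exoRNeasy, 4.52-fold between the means. The difference was -2.17 (SE 0.15, limma adjusted p = 0.00032), edgeR gave -2.04 (adjusted p = 0.00012) and the call held with rescaling (-1.68, adjusted p = 0.0019) and without any one of the 4 libraries. UC EVs had 19409.6 and 18222 TPM.

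The hairpin entry hsa-mir-221 fell in ATPS EVs, and the arms of the same gene lay on either side, the 3p arm above and the 5p arm below exoRNeasy, with neither arm called. MIR221 lies at chrX:45746157-45746266 (minus strand), overlapping an exon of the lncRNA gene MIR222HG, and MIR222 lies beside it at chrX:45747015-45747124 (minus strand) in an intron of that gene. Mature miRNAs of both genes are known for targeting the cell cycle inhibitor CDKN1B. hsa-mir-221 had 6128.6 and 4119.5 TPM in ATPS EVs (53 and 20 reads), against 32337.3 and 16145.3 TPM in exoRNeasy EVs (158 and 32 reads). The groups did not overlap, and the difference was -2.18 (SE 0.40, limma adjusted p = 0.016; edgeR adjusted p = 0.0016). Leaving out ATPS replicate 2 raised the limma adjusted p to 0.078, leaving out exoRNeasy replicate 1 raised it to 0.058 and rescaling raised it to 0.061. hsa-miR-221-3p had 4278.4 and 8238.9 TPM in ATPS EVs and 2251.3 and 4036.3 TPM in exoRNeasy EVs, a difference of 0.98 (limma adjusted p = 0.62). hsa-miR-221-5p had 3815.9 and 4119.5 TPM in ATPS EVs and 6754 and 6054.5 TPM in exoRNeasy EVs, a difference of -0.69 (limma adjusted p = 0.62). The hairpin entry thus held 43.1% and 25% of the MIR221 reads in ATPS EVs, of 123 and 80 reads, against 78.2% and 61.5% in exoRNeasy EVs, of 202 and 52 reads. The 3p arm held 30.1% and 50% with ATPS, against 5.4% and 15.4% with exoRNeasy. How the authors divided reads between a hairpin entry and its arms was not stated in the methods or labels.

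The neighbouring gene lay higher in ATPS EVs in its main arm and in its hairpin entry. hsa-miR-222-3p had 50069.4 and 95159.6 TPM in ATPS EVs (433 and 462 reads), against 19443.3 and 27245.2 TPM in exoRNeasy EVs (95 and 54 reads). The limma test did not call it (difference 1.58, SE 0.42, adjusted p = 0.084), while edgeR did (1.74, adjusted p = 0.00030), as did DESeq2 (2.38, adjusted p = 1.3e-06) and limma after rescaling (2.08, adjusted p = 0.019). Without 1 library the limma value ranged between 1.12 (adjusted p = 0.37, without ATPS replicate 2) and 2.05 (adjusted p = 0.056, without ATPS replicate 1). hsa-mir-222 had 113 and 90 reads in ATPS EVs and 29 and 13 in exoRNeasy EVs, a difference of 1.32 (limma adjusted p = 0.19). The hairpin entry held 20.6% and 16.3% of MIR222 reads with ATPS and 22.3% and 18.8% with exoRNeasy, so the division between hairpin and arm seen for MIR221 was not repeated here. UC EVs had 84998 and 146337 TPM of hsa-miR-222-3p.

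Further entries passed in some of the tests only. hsa-miR-27a-5p is an arm of MIR27A (chr19:13836440-13836517, minus strand, within MIR23AHG) and held 67.8% and 55.7% of the reads of that gene in ATPS EVs and 72.6% and 72.9% in exoRNeasy EVs. It fell to 4625.3 and 7003.1 TPM in ATPS EVs (40 and 34 reads), against 14122 and 17658.9 TPM in exoRNeasy EVs (69 and 35 reads). Its difference was -1.47 (SE 0.28, limma adjusted p = 0.017), but edgeR gave an adjusted p of 0.10, and the limma call was lost without ATPS replicate 1 (0.075), without exoRNeasy replicate 2 (0.10) and after rescaling (0.080). hsa-miR-182-5p, from the cluster with miR-183 and miR-96 (MIR182, chr7:129770383-129770492, minus strand), had 15610.5 and 35221.4 TPM in ATPS EVs, against 49733.9 and 71644.8 TPM in exoRNeasy EVs, from at least 100 reads in each library. For it limma gave -1.35 (adjusted p = 0.077) and edgeR -1.17 (adjusted p = 0.0095), while DESeq2 gave -0.53 (adjusted p = 0.35). Single libraries moved the limma value, to -1.93 (adjusted p = 0.0093) without ATPS replicate 2 and -0.76 (adjusted p = 0.14) without ATPS replicate 1, and it was -0.86 (adjusted p = 0.21) after rescaling and -0.45 (adjusted p = 0.61) with quantile normalization. hsa-miR-361-3p (MIR361, chrX:85903636-85903707, minus strand, in an intron of CHM) had 16 and 35 reads in ATPS EVs and 3 and 2 reads in exoRNeasy EVs, called by edgeR (2.53, adjusted p = 0.0094) and not by limma (2.21, adjusted p = 0.31). The limma value was 3.19 without ATPS replicate 1 and 1.23 (adjusted p = 0.93) without ATPS replicate 2. In all, edgeR called 6 entries (1.39%), namely hsa-mir-7641-2, hsa-miR-222-3p and hsa-miR-361-3p as higher and hsa-miR-425-5p, hsa-mir-221 and hsa-miR-182-5p as lower. DESeq2 called 7 (1.62%), of which 6 were higher and hsa-miR-425-5p alone was lower (0.231%). Its other calls were hsa-mir-7641-2, hsa-miR-222-3p, hsa-miR-361-3p, hsa-miR-423-3p, hsa-mir-222 and hsa-miR-30d-5p. DESeq2 scales libraries by its own factors, and its differences lay above those of limma. They were 2.03 beside 1.24 for hsa-mir-7641-2 and -1.34 beside -2.17 for hsa-miR-425-5p. How far this shift accounts for the uneven split of the DESeq2 calls was not tested. hsa-miR-423-3p had 19 and 21 reads in ATPS EVs and 3 and 2 reads in exoRNeasy EVs, a difference of 1.97 (limma adjusted p = 0.059). hsa-miR-221-3p, hsa-miR-221-5p, hsa-mir-222, hsa-miR-423-3p, hsa-miR-30d-5p and hsa-miR-30e-5p were chosen for description after their values were seen. Values by library are in the plot of miRNA entries by library.

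**Figure D2:**
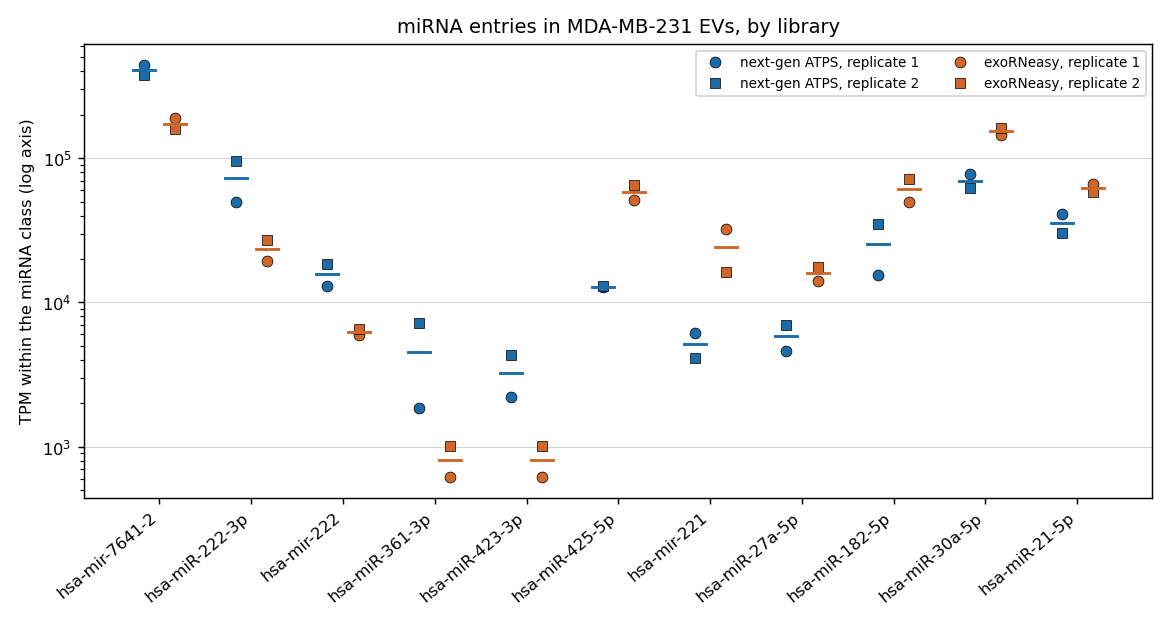
TPM within the miRNA class (vertical log axis) of 11 miRNA entries in the 4 MDA-MB-231 EV libraries, with next-gen ATPS left of exoRNeasy for each entry. Circles are replicate 1, squares are replicate 2 and bars are the mean of the 2 libraries. The groups do not overlap for any of these entries, which were picked among the entries the text describes. The abundant entries hsa-mir-21 and hsa-mir-1291, which overlapped, are not drawn. hsa-miR-425-5p shows 12719.7 and 12976.3 TPM in ATPS EVs, against 51166.6 and 65085.8 TPM in exoRNeasy EVs.

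By family, the miR-30 family took a smaller share of the miRNA class in ATPS EVs, at 10.3% and 9.99%, against 17.5% and 20.4% in exoRNeasy EVs. Of its 13 tested members 2 rose and 0 fell, and those 2 (hsa-mir-30c-1 and hsa-miR-30a-3p) had at most 3 reads. Over all 433 tested entries 3.23% were called higher and 2.31% lower. The median difference over the 13 was 0.00, equal to the median over all 433 tested entries. The members were not alike. hsa-miR-30a-5p, the most abundant, had 77127.7 and 61997.9 TPM in ATPS EVs and 144904 and 162967 TPM in exoRNeasy EVs, a difference of -1.15 (limma adjusted p = 0.29). hsa-miR-30e-5p, which shares its seed, had 34 and 28 reads in ATPS EVs and 20 and 20 in exoRNeasy EVs, a difference of -0.43. hsa-miR-30d-5p had 94 and 74 reads in ATPS EVs and 25 and 19 in exoRNeasy EVs, a difference of 0.88 (limma adjusted p = 0.42; DESeq2 adjusted p = 0.0083).

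The counts of called members below stand beside 3.23% called higher and 2.31% called lower over all tested entries. The miR-221 and miR-222 cluster held 7.76% and 13.0% of the class in ATPS EVs and 6.79% and 6.10% in exoRNeasy EVs. Of its 6 tested members 0 rose and 1 fell (hsa-mir-221). The miR-183 cluster, to which miR-96 and miR-182 belong, held 1.76% and 3.79% with ATPS and 5.24% and 7.42% with exoRNeasy, with 0 of 6 tested members called. The miR-23, miR-27 and miR-24 clusters held 1.78% and 2.80% with ATPS and 3.23% and 3.28% with exoRNeasy, where 1 of 15 tested members rose and 2 fell, and of these only hsa-miR-27a-5p had more than 1 read in any library. The 3 entries of miR-21, an oncogenic miRNA that is abundant in many tumour cells, held 13.5% and 10.2% with ATPS and 16.6% and 13.7% with exoRNeasy. The libraries did not overlap, but ATPS replicate 1 and exoRNeasy replicate 2 lay close together, and 0 of the 3 were called. The let-7 and miR-98 family held 1.21% and 1.42% with ATPS and 1.64% and 1.41% with exoRNeasy, and 0 of 23 tested members were called. For shares, an exact permutation test over the library labels was used, which cannot give a two-sided p under 0.333 with 2 libraries against 2, so none of the 30 lists could pass.

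The rRNA-like list held 46.8% and 41.2% of the class in ATPS EVs, against 24.7% and 20.6% in exoRNeasy EVs, and most of that was hsa-mir-7641-2. Of its 13 tested members 1 rose and 0 fell, beside 3.23% and 2.31% over all tested entries. Without hsa-mir-7641-2 the rest of the list lay the other way, at 4.11% and 5.59% of the remaining class in ATPS EVs and 7.14% and 5.64% in exoRNeasy EVs. The replicate 2 libraries of the methods nearly coincided here, so this direction is weak. hsa-miR-663b, a member of the list, had 12372.8 and 21009.3 TPM in ATPS EVs and 31723.3 and 37840.6 TPM in exoRNeasy EVs, a difference of -1.10 (limma adjusted p = 0.19). Outside hsa-mir-7641-2, the miR-30 family still held less in ATPS EVs (18.5% and 16%, against 21.6% and 24.3%), as did the miR-183 cluster (3.17% and 6.08%, against 6.46% and 8.81%), and the miR-221 and miR-222 cluster still held more (14% and 20.9%, against 8.38% and 7.25%). The groups overlapped for miR-21 (24.3% and 16.3%, against 20.53% and 16.2%) and for the miR-23, miR-27 and miR-24 clusters (3.21% and 4.50%, against 3.99% and 3.90%). The let-7 and miR-98 family, which overlapped as deposited, was then higher in ATPS EVs (2.19% and 2.28%, against 2.02% and 1.68%).

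**Figure D3:**
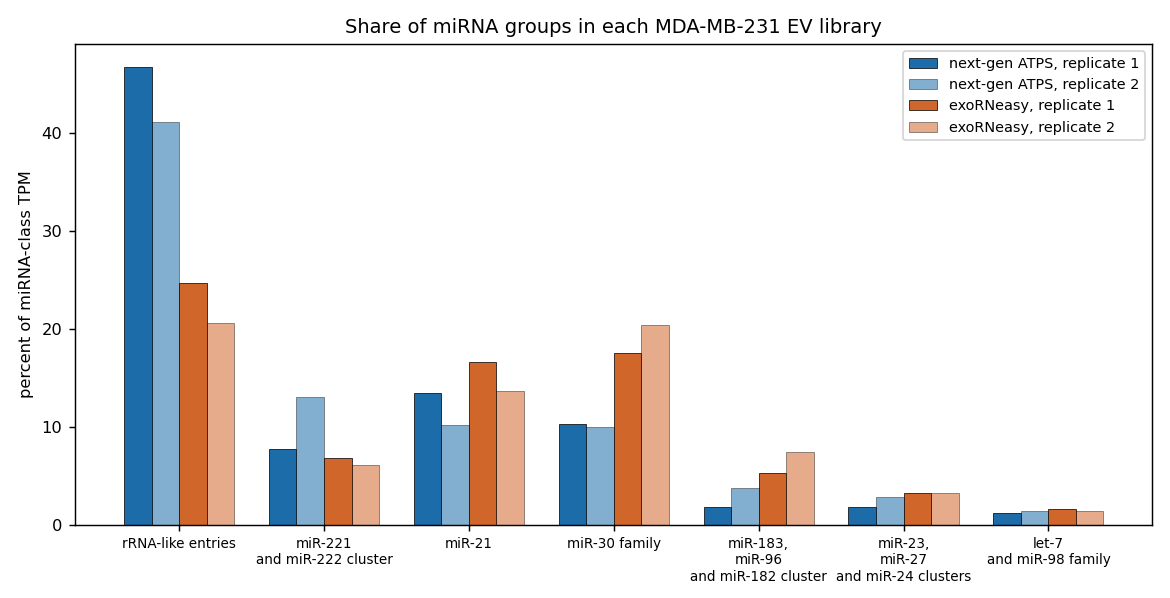
Percent of the miRNA-class TPM (vertical axis, from 0) held by 7 miRNA groups in each of the 4 MDA-MB-231 EV libraries, one bar a library with next-gen ATPS left of exoRNeasy. The rRNA-like entries held 46.8% and 41.2% in ATPS EVs and 24.7% and 20.6% in exoRNeasy EVs, and the miR-30 family held 10.3% and 9.99%, against 17.5% and 20.4%.

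Some of the snoRNAs with the smallest unadjusted p-values, none of them called by limma, are shown next. This sets their box elements beside their values. Sequences are the GENCODE v44 transcripts on GRCh38. For the C/D box snoRNAs the capitals mark TGATGA, the core of the C box, and CTGA, the D box. For the H/ACA box snoRNAs they mark the ACA that lies 3 bases before the end.
SNORD17: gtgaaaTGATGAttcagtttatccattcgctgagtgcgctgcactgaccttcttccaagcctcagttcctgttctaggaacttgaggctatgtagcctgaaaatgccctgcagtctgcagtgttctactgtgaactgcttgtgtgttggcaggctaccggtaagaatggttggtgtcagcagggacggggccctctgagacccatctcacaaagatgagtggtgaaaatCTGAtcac
SNORD95: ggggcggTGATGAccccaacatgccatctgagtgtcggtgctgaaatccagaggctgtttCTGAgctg
SNORA3A: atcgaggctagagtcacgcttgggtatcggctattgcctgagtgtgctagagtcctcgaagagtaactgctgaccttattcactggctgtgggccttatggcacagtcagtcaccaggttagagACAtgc
SNORA50C: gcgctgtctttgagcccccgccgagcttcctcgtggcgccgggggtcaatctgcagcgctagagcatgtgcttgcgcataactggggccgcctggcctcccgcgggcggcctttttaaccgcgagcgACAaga
Among the 248 SNORD entries of the table with a transcript, 79% held TGATGA and 98% held CTGA, and ACA stood 3 bases before the end in 72.8% of 136 SNORA entries, searched on the transcript strand.

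ATPS and exoRNeasy EVs had nearly the same ranking of snoRNAs, and no single snoRNA passed the main test. limma called 0 of 350 tested snoRNAs (0.0%), with an unadjusted p under 0.05 for 37 (10.6%), of which 23 were higher in ATPS EVs (6.57%) and 14 lower (4.0%). edgeR called 4 (1.14%) and DESeq2 called the same 4. These were SNORA50 and SNORA50C, higher in ATPS EVs (0.571%), and SNORD17 and SNORA3A, lower (0.571%), and SNORA50 and SNORA50C hold nearly the same reads. The limma count depended on single libraries. It was 6, all lower, without ATPS replicate 1 and 13, all higher, without exoRNeasy replicate 1. The edgeR and DESeq2 fits used 11 EV libraries, since values of 1 PC3 UC library were not treated as recovered reads.

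SNORD17, a C/D box snoRNA in an intron of SNX5 (chr20:17962710-17962946, minus strand), had 2829 and 2397 TPM in ATPS EVs (428 and 146 reads), against 9189 and 7089 TPM in exoRNeasy EVs (1029 and 311 reads). The difference was -1.63 (SE 0.38, limma adjusted p = 0.082; edgeR adjusted p = 0.037), 3.11-fold between the means. SNORA3A, an H/ACA box snoRNA within RPL27A (chr11:8684227-8684356, plus strand), had 1091 and 443 TPM in ATPS EVs (165 and 27 reads), against 4197 and 2052 TPM in exoRNeasy EVs (470 and 90 reads). It differed by -2.08 (SE 0.49, limma adjusted p = 0.082; edgeR adjusted p = 0.047). Without ATPS replicate 1 limma gave -2.72 (adjusted p = 0.024), without ATPS replicate 2 it gave -1.43 (adjusted p = 0.38) and without exoRNeasy replicate 1 it gave -1.56 (adjusted p = 0.15). SNORA50C, an H/ACA box snoRNA within SNHG25 (chr17:64146339-64146471, plus strand), lay the other way, with 2294 and 2495 TPM in ATPS EVs (347 and 152 reads), against 509 and 524 TPM in exoRNeasy EVs (57 and 23 reads). It differed by 2.21 (SE 0.60, limma adjusted p = 0.082; edgeR adjusted p = 0.037), 4.64-fold between the means. For all 3 the libraries of the methods did not overlap, as was so for 100 of 350 tested snoRNAs (28.6%).

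The other snoRNAs with the smallest unadjusted p-values were not called by limma as designed, edgeR or DESeq2, though each passed under 1 to 6 of 16 alternative settings. SNORD95 (chr5:181243312-181243379, minus strand, within RACK1) had 7768 and 5730 TPM in ATPS EVs and 3099 and 3214 TPM in exoRNeasy EVs, a difference of 1.08 (limma adjusted p = 0.082). SNORD88A had 529 and 673 TPM in ATPS EVs and 125.02 and 251 TPM in exoRNeasy EVs, a difference of 1.75. SNORD118, known as U8 and needed for processing of the large ribosomal subunit RNA, had 357 and 148 TPM in ATPS EVs and 1072 and 752 TPM in exoRNeasy EVs, a difference of -1.96. SNORD123 differed by -2.15 and SNORD89 by -1.76, with lower values in ATPS EVs. SNORD14A, a copy of U14, which acts in cleavage of the small subunit RNA, had 33 and 14 reads in ATPS EVs and 9 and 1 in exoRNeasy EVs. The limma adjusted p was 0.082 for all of these except SNORD14A, where it was 0.10.

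**Figure D4:**
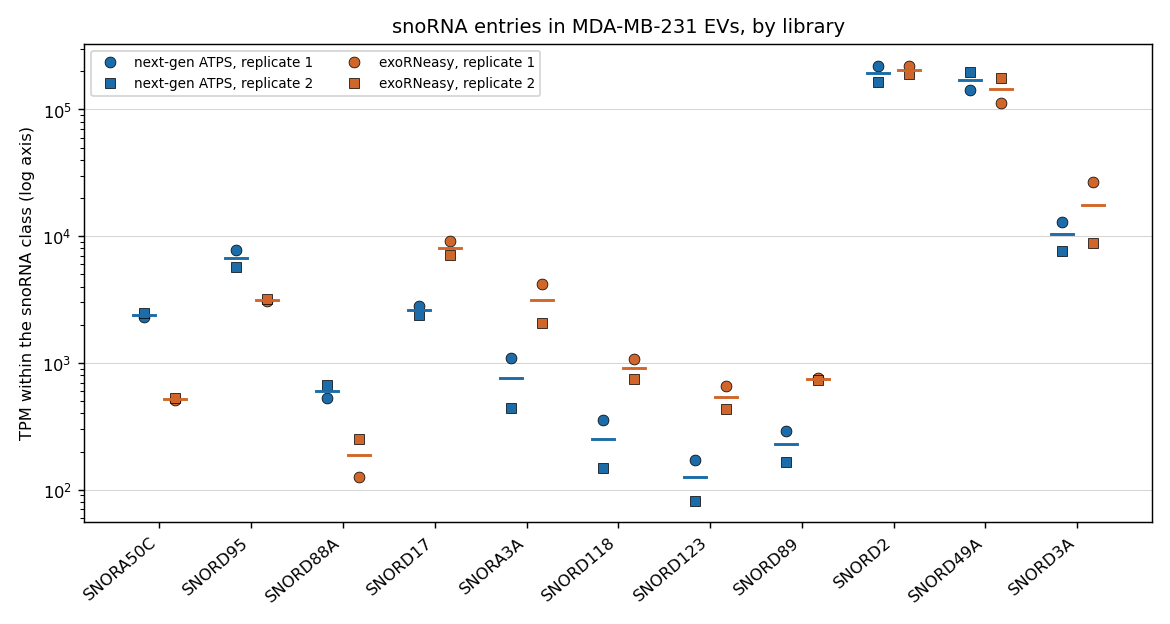
TPM within the snoRNA class (vertical log axis) of 11 snoRNA entries in the 4 MDA-MB-231 EV libraries, with next-gen ATPS left of exoRNeasy for each entry. Circles are replicate 1, squares are replicate 2 and bars are the mean of the 2 libraries. SNORA50C lay higher in ATPS EVs (2294 and 2495 TPM, against 509 and 524 TPM) and SNORD17 lay lower (2829 and 2397 TPM, against 9189 and 7089 TPM), while SNORD2, SNORD49A and SNORD3A overlapped.

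Among the 12 snoRNAs in the 10 most abundant of either method, 8 overlapped between the methods, SNORD26, SNORD69 and SNORD6 lay higher in ATPS EVs and SNORD30 lay lower, with none of them called. SNORD26 had 70438 and 52469 TPM in ATPS EVs and 40273 and 45865 TPM in exoRNeasy EVs, a difference of 0.50 (limma adjusted p = 0.41). SNORD2 had 221337 and 163941 TPM in ATPS EVs and 218476 and 189158 TPM in exoRNeasy EVs, and SNORD49A had 141591 and 197958 TPM in ATPS EVs and 111917 and 177168 TPM in exoRNeasy EVs. C/D box snoRNAs held 93.3% and 95.7% of the class with ATPS and 91.4% and 95.4% with exoRNeasy, and 0 of 208 tested were called, with a median difference of 0.01 beside 0.04 over all snoRNAs tested. H/ACA box snoRNAs held 5.55% and 3.46% with ATPS and 6.07% and 3.62% with exoRNeasy, with 0 of 130 called and a median difference of 0.21. The U14 family held 0.265% and 0.353% with ATPS and 0.182% and 0.246% with exoRNeasy, with 0 of 5 called and a median of 1.42.

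Long snoRNAs took more of the class in exoRNeasy replicate 1 than in the other libraries. The pre-rRNA cleavage list, which holds U3, U8, U14 and related snoRNAs, took 6.56% and 3.96% of the class in ATPS EVs and 13.6% and 4.58% in exoRNeasy EVs, with 0 of 17 called. SNORD3A, a copy of U3, had 12997 and 7634 TPM in ATPS EVs and 26584 and 8822 TPM in exoRNeasy EVs, so that both replicate 1 libraries lay above both replicate 2 libraries. The U3 genes are near-identical copies and their separate values are uncertain. Tested snoRNAs of at least 130 bases held 13.0% and 7.58% of the class in ATPS EVs and 23.1% and 9.72% in exoRNeasy EVs, while those under 80 bases held 77% and 80.2% with ATPS and 67.3% and 79% with exoRNeasy. The median difference was 0.06 for the 122 long ones and 0.04 for the 95 short ones.

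Among circRNA entries, a single group of sequences filled most of the class in both methods, and more of it in ATPS EVs. The 8 most abundant entries, of which hsa_circ_0040314 is one, held nearly identical reads and together made up 90.7% and 90.4% of the class in ATPS EVs, against 83.5% and 85.0% in exoRNeasy EVs. hsa_circ_0040314 alone had 113399 and 112952 TPM in ATPS EVs and 104436 and 106291 TPM in exoRNeasy EVs. The difference of 0.10 (SE 0.02) passed in limma (adjusted p = 0.014) and not in edgeR (0.29, adjusted p = 0.53), and the limma adjusted p was 0.067, 0.057 and 0.11 without ATPS replicate 1, ATPS replicate 2 and exoRNeasy replicate 1. No file used here pairs the circRNA entries with genes, so entries are given by identifier.

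Of 1215 tested circRNA entries limma called 233 (19.2%), of which 75 were higher in ATPS EVs (6.17%) and 158 lower (13.0%). Unadjusted p-values were under 0.05 for 10.1% in the higher and 19.8% in the lower direction. The split depended on scaling. With values rescaled to exclude the 8 leading entries, the median difference was 0.40, against -0.10 as deposited, and the calls among 1207 entries became 174 higher and 58 lower, of which 125 were among the original calls. edgeR called 234 (19.3%), of which 92 were lower (7.57%) and the others higher (11.7%), while DESeq2 called 319 (26.3%), 139 higher and 180 lower, and quantile normalization gave 91 higher and 100 lower. Leaving out 1 library changed the number of calls to 101 without ATPS replicate 1, 115 without ATPS replicate 2, 108 without exoRNeasy replicate 1 and 222 without exoRNeasy replicate 2. Entries are also not separate observations. The 1215 tested entries had 1081 distinct sets of reads, the 75 higher ones had 62 and the 158 lower ones had 140. Among the 183 entries with a mean TPM of at least 10, 17 were called higher and 16 lower as deposited, and 17 and 6 after rescaling.

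The largest changes kept their direction under each scaling. hsa_circ_0100788 rose to 58.7 and 89.3 TPM in ATPS EVs, against 7.66 and 9.31 TPM in exoRNeasy EVs. Its difference was 2.96 (SE 0.51, limma adjusted p = 0.0053; edgeR adjusted p = 0.014) as deposited and 3.81 after rescaling, and UC EVs had 27.7 and 85.6 TPM. hsa_circ_0045845 fell to 6.85 and 2.03 TPM in ATPS EVs, against 103.4 and 45.8 TPM in exoRNeasy EVs. Its difference was -3.84 (SE 0.58, limma adjusted p = 0.0040; edgeR adjusted p = 0.0047) as deposited and -3.44 after rescaling, and UC EVs had 15.6 and 5.06 TPM. Both calls held without any one of the 4 libraries.

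**Figure D5:**
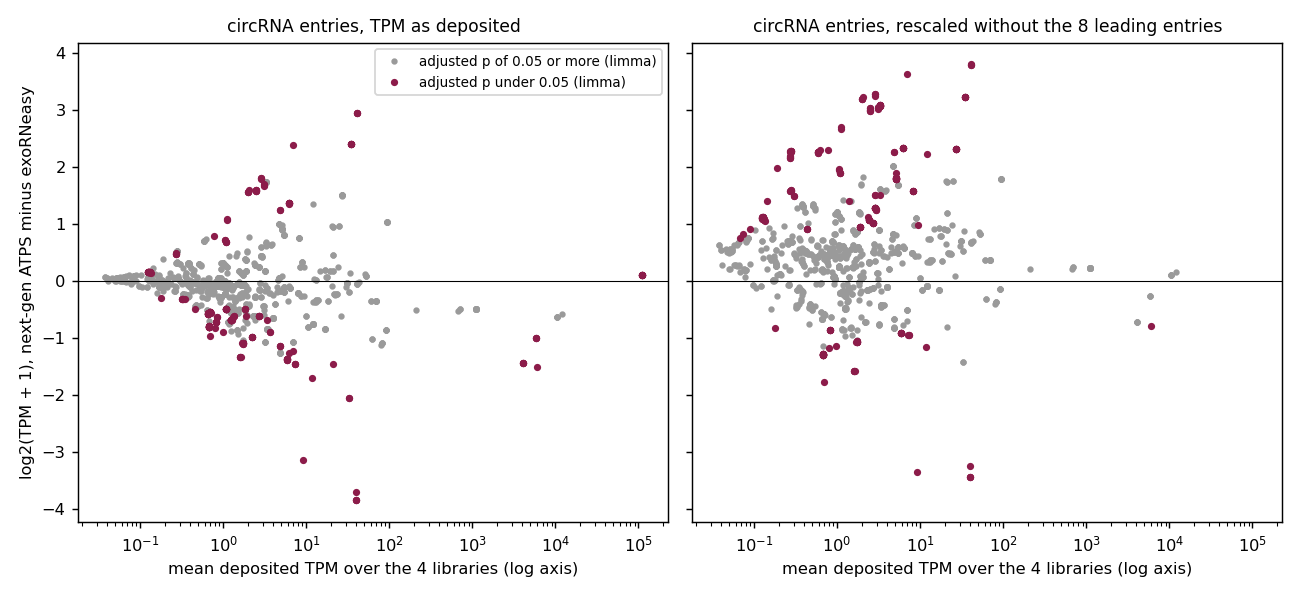
Difference in log2(TPM + 1), next-gen ATPS minus exoRNeasy (vertical axis), against mean deposited TPM over the 4 MDA-MB-231 libraries (horizontal log axis), for tested circRNA entries. The left panel shows 1215 entries as deposited and the right panel shows 1207 entries rescaled without the 8 leading entries. Dark red points have a limma adjusted p under 0.05, and they number 75 above and 158 below on the left and 174 above and 58 below on the right. Entries with the same reads lie on top of each other.

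The study also compared how many species each method recovers and how many are shared. Above 0 TPM, ATPS EVs had 244 and 216 miRNA entries and exoRNeasy EVs had 237 and 167, a difference between means of 28 (exact permutation p = 0.667). Since depth differed, the number expected at 1982 reads was also computed, which was 130 and 146 for ATPS and 159 and 167 for exoRNeasy. The difference then lay the other way, at -24.9 (exact permutation p = 0.333, the smallest p possible). Thinning the total did not equalize the reads left for other entries. hsa-mir-7641-2 held 44.5% and 37.7% of miRNA reads with ATPS, against 18.9% and 15.8% with exoRNeasy. Depth outside that entry was not matched, so this reversal does not show that exoRNeasy recovers more entries. snoRNAs numbered 308 and 270 with ATPS and 315 and 250 with exoRNeasy, and the difference of 6.5 (exact permutation p = 1) was smaller than the spread between replicates. circRNA entries numbered 55707 and 46789 with ATPS and 59261 and 38670 with exoRNeasy (difference 2282.5, exact permutation p = 1), and with the summed reads of each library thinned to the lowest sum the difference was -8331.31. This does not equalize depth, since the sums count shared reads more than once and the leading entries hold different shares of them.

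Of 304 miRNA entries found with ATPS and 287 found with exoRNeasy, 189 were shared, which is 62.2% of the ATPS set and 65.9% of the exoRNeasy set. The entries found with one method only had at most 5 reads in a library, and the shared ones held 98.7% and 98.4% of the TPM in ATPS EVs and 97.8% and 97.6% in exoRNeasy EVs. For snoRNAs 300 were shared, of 318 with ATPS and 319 with exoRNeasy (94.3% and 94.0%). For circRNA entries 51351 were shared, of 69930 with ATPS and 68173 with exoRNeasy (73.4% and 75.3%). Across species, Spearman correlations between methods were 0.55 to 0.65 for miRNA, beside 0.69 within ATPS and 0.60 within exoRNeasy. They were 0.91 to 0.95 for snoRNA (0.95 within ATPS, 0.93 within exoRNeasy) and 0.83 to 0.90 for circRNA (0.92 within ATPS, 0.93 within exoRNeasy). These are descriptions across 433, 350 and 1215 species that share libraries and depth.

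The difference between methods was set beside the same difference in PC3 EVs, which shares no library with it. Of the 41 miRNA entries with at least 20 reads in MDA-MB-231 EVs, 28 lay in the same direction in both lines (68.3%), with a Pearson correlation of the differences of 0.58. Only 16 of these 41 also had at least 20 reads in PC3 EVs, so most of the PC3 differences rest on few reads. hsa-miR-425-5p had 13725.9 and 16478.8 TPM in PC3 ATPS EVs, against 48387.1 and 42663.5 TPM in PC3 exoRNeasy EVs, and hsa-mir-7641-2 had 68430.5 and 62879.4 TPM in PC3 ATPS EVs, against 25300.4 and 31100.5 TPM in PC3 exoRNeasy EVs. Both lay in the direction seen in MDA-MB-231 at similar size, with line differences, MDA-MB-231 minus PC3, of -0.57 (limma adjusted p = 0.29) and 0.02 (limma adjusted p = 1). hsa-miR-27a-5p had 26656.1 and 24935 TPM in PC3 ATPS EVs and 72422.5 and 82934.6 TPM in PC3 exoRNeasy EVs. hsa-miR-361-3p had 38989.5 and 40112.7 TPM in PC3 ATPS EVs and 2530 and 2791.1 TPM in PC3 exoRNeasy EVs, or 196 and 185 reads against 8 and 7.

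Other entries differed between the lines. limma called a line difference for 17 miRNA entries (3.93%), and hsa-mir-221 was among them (-3.20, adjusted p = 0.022). In PC3 it had 8 and 6 reads with ATPS and 2 and 2 with exoRNeasy, so the PC3 side rests on few reads. edgeR called 2 (0.462%), hsa-mir-221 (-3.76, adjusted p = 0.026) and hsa-miR-182-5p (-1.89, adjusted p = 0.0034). DESeq2 did not call hsa-mir-221 here (adjusted p = 1), nor did limma with quantile normalization (adjusted p = 0.13). hsa-miR-182-5p, which dominates PC3 EVs, had 549433 and 562229 TPM in PC3 ATPS EVs and 513915 and 496412 TPM in PC3 exoRNeasy EVs. Among snoRNAs only SNORA66, an H/ACA box snoRNA in an intron of RPL5, was called by limma (0.286%). It had 7477 and 4646 TPM in MDA-MB-231 ATPS EVs and 4206 and 4217 TPM in MDA-MB-231 exoRNeasy EVs, against 883 and 1012 TPM in PC3 ATPS EVs and 3818 and 4494 TPM in PC3 exoRNeasy EVs. The line difference was 2.62 (SE 0.50, limma adjusted p = 0.023; edgeR 2.53, adjusted p = 0.049), and it was no longer called by limma without ATPS replicate 1 (adjusted p = 0.20) or without exoRNeasy replicate 2 (adjusted p = 0.11). SNORA3A and SNORD95 had line differences of 0.19 and 0.03. Those of SNORD17, SNORA50C and SNORD118 were larger, at -1.40, -1.66 and -2.08, and limma called none of them. SNORD17 had 813 and 747 TPM in PC3 ATPS EVs and 1011 and 824 TPM in PC3 exoRNeasy EVs. SNORA50C had 31 and 24 reads in PC3 ATPS EVs and 1 and 5 in PC3 exoRNeasy EVs. SNORD88A, SNORD123, SNORD89 and SNORD14A had line differences of 0.41, -0.38, 0.09 and -0.17. Of 192 snoRNAs with at least 20 reads, 117 lay in the same direction in both lines (60.9%), with a correlation of 0.35, and of 1215 circRNA entries 928 did (76.4%), with a correlation of 0.63. limma called a line difference for 80 circRNA entries (6.58%), of which neither hsa_circ_0100788 nor hsa_circ_0045845 was one. hsa_circ_0100788 had 21.1 and 17.4 TPM in PC3 ATPS EVs and 2.74 and 4.49 TPM in PC3 exoRNeasy EVs, and hsa_circ_0045845 had 0.112 and 0.0900 TPM in PC3 ATPS EVs and 2.18 and 1.81 TPM in PC3 exoRNeasy EVs.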

How the data were processed

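Small RNA libraries of 2 cell lines and their EVs were compared. The authors trimmed reads by quality, filtered them by length, ran STAR against hg38, assigned RNA classes in COMPSRA and deposited counts scaled to TPM (versions: not given in the sources used here). Multimapping reads were kept with more weight on unique ones. The deposited TPM values have the same sum in every class and library, so they are CPM in effect, and whole reads were recovered from them (tolerance 0.1 read; 100.0% of values whole in the 4 libraries). In the rest of the series, 3 columns (MDA-MB-231 cells replicate 2 in miRNA and snoRNA, PC3 UC replicate 1 in snoRNA) were not treated as recovered reads, and the snoRNA count tests used 11 EV libraries.

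Species with at least 1 TPM in at least 2 of 12 EV libraries were tested with limma 3.58.1 (R 4.3.3, trend and robust) on log2(TPM + 1), with 6 groups in the model and Benjamini-Hochberg adjustment over all species tested. A fold change on this scale understates the change of low species. edgeR 4.0.16 (quasi-likelihood) and DESeq2 1.42.0 on recovered reads were alternatives. Shares and numbers of species were compared with two-sided exact permutation tests. The line difference is a term of the same limma fit.

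Named species were, in each direction, the 10 largest called changes with a mean of at least 10 TPM and no overlap, the 10 most abundant per method, the 10 smallest p-values among species with at least 20 reads, and for circRNA the 8 most abundant and 3 largest called changes in each direction. The members and lists were chosen with earlier results of these data known. Species called by edgeR or DESeq2 alone were added after values were seen. In data simulated for this comparison, limma called 9 of 50 miRNA, 36 of 44 snoRNA and 50 of 50 circRNA species changed 4-fold. Among unchanged species it called 4 of 233 miRNA, 2 of 175 snoRNA and 7 of 1015 circRNA species. The simulation assumed a single spread between libraries and the same starting means in all EV groups. Changes were placed outside the least abundant species only, so these rates need not hold for the data. Replicate numbers carry no shared culture or batch in the labels and were not used as pairs. UC libraries are labelled VC.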

Additional observations from a re-analysis of the deposited data

Results flagged for a closer look

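The difference between next-gen ATPS and exoRNeasy EVs was tested against the same difference in PC3 EVs, MDA-MB-231 minus PC3, with limma. It differed between the lines for 17 miRNA entries, 1 snoRNA and 80 circRNA entries. hsa-mir-221 differed by -3.20 on the log2 scale and SNORA66 by 2.62, with the values given above.

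The other named miRNA entries rest on a few reads, and the size of their line difference depends on the pseudocount. hsa-mir-500b differed by 10.65, with 3 and 3 reads in MDA-MB-231 ATPS EVs and 0 and 0 in MDA-MB-231 exoRNeasy EVs, against 3 and 8 reads in PC3 ATPS EVs and 14 and 7 in PC3 exoRNeasy EVs. hsa-miR-500a-5p differed by 10.35, with 3 and 2 reads in MDA-MB-231 ATPS EVs and 0 and 0 in MDA-MB-231 exoRNeasy EVs. hsa-miR-345-5p differed by 17.04, with 3 and 1 reads in MDA-MB-231 ATPS EVs and 0 and 0 in MDA-MB-231 exoRNeasy EVs, against 0 and 0 reads in PC3 ATPS EVs and 2 and 1 in PC3 exoRNeasy EVs. hsa-miR-6073 differed by -10.39, with 4 and 5 reads in MDA-MB-231 ATPS EVs and 2 and 1 in MDA-MB-231 exoRNeasy EVs, against 6 and 16 reads in PC3 ATPS EVs and 0 and 0 in PC3 exoRNeasy EVs. hsa-miR-4797-3p differed by -9.62, with 0 and 0 reads in MDA-MB-231 ATPS EVs and 3 and 2 in MDA-MB-231 exoRNeasy EVs, and 0 reads in the 4 PC3 libraries, so that this value is the difference in MDA-MB-231 alone.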

How the results depend on the processing

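Over 1321 alternatives for named species, 987 kept the direction and the side of the threshold, 225 kept the direction and lost a call and 76 kept it and gained one. Among the other alternatives 33 changed the sign of a difference, in 13 species, and in none was the value past the threshold before or after. With quantile normalization hsa-mir-21 became 0.24, hsa-mir-1291 became 0.60, SNORD43 became 0.15. With edgeR hsa-mir-21 became 0.0032, SNORD63 became -0.13, SNORD101 became -0.13. With DESeq2 hsa-mir-21 became 0.69, hsa-miR-21-5p became 0.012, hsa-mir-1291 became 0.57, SNORD63 became -0.075, SNORD101 became -0.071, hsa-miR-221-5p became 0.055, hsa-miR-30e-5p became 0.37. With rescaling hsa-mir-21 became 0.39, hsa-mir-1291 became 0.17, hsa-miR-30e-5p became 0.058. Without 1 library the difference ranged over -0.30 to 0.10 for hsa-mir-21, -0.74 to 0.10 for hsa-mir-1291, -0.31 to 0.12 for SNORD2, -0.082 to 0.58 for SNORD49A, -0.21 to 0.29 for SNORD63, -0.38 to 0.11 for SNORD43, -0.35 to 0.44 for SNORD101, -1.42 to 0.18 for SNORD3A, -1.50 to 0.094 for SNORD3B-2, -1.08 to 0.22 for hsa-miR-30e-5p, -0.57 to 0.70 for hsa-miR-30c-5p.

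The number of calls was less stable, and the cause was not tested. The 14 miRNA entries called higher in ATPS EVs became 3 with a pseudocount of 100, 4 with no filter, 2 with at least 10 reads in 2 of the 4 libraries, 5 with quantile normalization, 3 with all 16 libraries, 0 with the 4 libraries only, 3 with edgeR and 6 with DESeq2 (12 to 20 without 1 library). The 10 called lower became 2 with no filter, 4 with at least 10 reads, 6 with quantile normalization, 0 with 4 libraries, 3 with edgeR and 1 with DESeq2 (8 to 13 without 1 library). For snoRNAs the 0 called higher became 3 with a pseudocount of 100, 4 with at least 10 reads, 2 with edgeR and 2 with DESeq2 (0 to 13 without 1 library), and the 0 called lower became 6, 5, 2 and 2 in the same settings and 3 with quantile normalization (0 to 6 without 1 library). The 75 circRNA entries called higher became 22 with a pseudocount of 10, 16 with 100, 1 with no filter, 45 with at least 10 reads, 21 with all 16 libraries, 0 with 4 libraries, 1.4e+02 (rounded) with edgeR, 139 with DESeq2 and 174 when rescaled (25 to 35 without 1 library). The 158 called lower became 12 with no filter, 332 with at least 10 reads, 100 with quantile normalization, 103 with all 16 libraries, 0 with 4 libraries, 92 with edgeR and 58 when rescaled (73 to 190 without 1 library). Line differences became 7 miRNA entries with a pseudocount of 10, 0 with all 16 libraries and 2 with edgeR; 0 snoRNAs with all 16 libraries (0 to 8 without 1 library); and 156, 48 and 16 circRNA entries with a pseudocount of 10, all 16 libraries and edgeR (0 to 11 without 1 library).

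The difference in miRNA entries detected was -24.9 with total miRNA reads thinned to the lowest total (-7 to 63 without 1 library). That in snoRNAs was -26 to 39 without 1 library (-12.5 without ATPS replicate 1). That in circRNA entries was -8331.31 with summed reads thinned to the lowest sum (-8013 to 12578 without 1 library, -2176.5 without ATPS replicate 1). The shared part of the exoRNeasy miRNA set was 76.9% for entries found in both libraries and 77.5% with at least 3 reads. For circRNA, the shared part was 58.0% of the ATPS set and 63.5% of the exoRNeasy set for entries in both libraries, and 62.8% of the exoRNeasy set with at least 3 reads.

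With the replicate number as a block, snoRNA calls were 4 higher and 6 lower (2 and 8 with the block within each line), miRNA calls 15 and 12 (16 and 11) and circRNA calls 97 and 188 (110 and 269). Line differences under the block were 11 miRNA entries (0 within line), 51 circRNA entries (123 within line) and, within line, 4 snoRNAs. Under the block the limma adjusted p was 0.018 for SNORD17, 0.018 for SNORA3A, 0.035 for SNORA50C and 0.036 for SNORD95. Same-numbered libraries deviated together with correlations of 0.08 between ATPS and exoRNeasy, -0.05 between ATPS and UC and 0.01 between exoRNeasy and UC for miRNA, of 0.27, 0.25 and 0.23 for snoRNA and of 0.77, 0.74 and 0.50 for circRNA. There are 2 numbers only and no label gives them a shared culture or batch, so the pairing stays a hint from the data and was not assumed.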
